A study of Mus musculus with 10 samples.

Results

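The collagen chains of the mouse heart were compared between hearts that overexpress SPOP and control hearts. SPOP is the substrate-binding subunit of a cullin-3 ubiquitin ligase. The members are the protein-coding genes of the deposited table whose symbol is Col followed by a type number, the letter a and a chain number. This pattern matched 45 of the 24888 genes in the table, of which 16703 are protein-coding. 44 of the 45 encode collagen chains. The other, Col4a3bp, encodes the ceramide transfer protein, and it had 1072 ± 203 scaled reads in SPOP_CKI hearts and 929 ± 101 in Cre_control hearts (adjusted p = 0.401 by the test used throughout). It was left out of every count of chains. By structure, the 44 chains comprise 11 fibrillar, 6 basement membrane, 6 beaded filament and 9 FACIT chains (fibril-associated collagens with interrupted triple helices). The remaining chains are 3 short-chain network, 2 multiplexin, 4 transmembrane and 1 anchoring fibril chain, and 2 of other types.

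Poly(A) RNA was sequenced from whole heart tissue of 10 mice. 5 libraries came from hearts with the genotype CKI, in which SPOP is overexpressed through an αMHC-Cre transgene (SPOP_CKI). 5 came from hearts titled wild type but with the genotype Myh6Cre, which carry that Cre alone (Cre_control), so Cre is shared by both groups. All mice are labelled male, and the series gives an age of 8 to 10 weeks and sham conditions for both groups. αMHC is the alpha-myosin heavy chain, and its promoter is active in cardiomyocytes, whereas the tissue sequenced also holds the fibroblasts, vessel cells and other cells that make most collagen.

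Collagens are trimers of chains wound into a triple helix, and most are secreted into the extracellular matrix. In the heart, fibroblasts make type I and type III collagen, whose fibrils bear load between the muscle cells, with type V collagen within the fibrils as a regulator of their diameter. Type IV collagen forms the sheet-like network of the basement membranes around cardiomyocytes and capillaries. Type VI collagen forms beaded microfilaments beside those membranes, and FACIT chains decorate the surface of fibrils. Excess deposition of fibrillar collagen is the hallmark of cardiac fibrosis.

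The values are scaled reads, meaning that reads per gene were divided by each library's size factor. Recovered depth was 15316293 to 17114869 reads per library. Spop had 31900 ± 6254 scaled reads in SPOP_CKI hearts and 3425 ± 317 in Cre_control hearts (SD, n = 5 each). The lowest SPOP_CKI library had 25308 and the highest Cre_control library 3726 (exact two-sided permutation test, p = 0.0079, the smallest that 5 against 5 can give). Some libraries stood apart. SPOP_CKI 3 had reads for 13167 genes, against 18531 to 20806 in the other SPOP_CKI libraries and 18822 to 19965 in the Cre_control libraries. SPOP_CKI 1, SPOP_CKI 3 and Cre_control 5 held 6491, 6578 and 4491 scaled reads of Xist and no read of the Y-linked genes examined, against their label of male. Counts of chains are given with and without these libraries. For single genes, the values given are mostly those without SPOP_CKI 3, and not every call that changes without the 3 libraries is listed.

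Chains of several structural classes were called higher in SPOP_CKI hearts, and no basement membrane chain passed the same test in either direction. Of the 44 chains, 30 passed the filter on low values (at least 10 scaled reads in at least 5 libraries). 7 of the 30 were higher, 1 was lower and 22 did not pass an adjusted p of 0.05 (limma on log2(value + 1), two-sided, Benjamini-Hochberg adjustment over 14212 genes). The higher chains were Col14a1, Col12a1, Col15a1, Col6a3, Col8a1, Col5a2 and Col6a2, and the lower chain was Col6a6. Over all genes tested, 10.0% were higher and 12.3% were lower. The median log2 fold change was 0.34 over the 30 chains, with 21 above 0, and -0.11 over all genes. In whole tissue, a change in the number of cells of a type and a change in the RNA per cell cannot be told apart.

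The count depended on SPOP_CKI 3. Without that library, 13 chains were higher and 3 lower, against 13.7% and 17.3% of all genes. The chains added were Col1a1, Col1a2, Col3a1, Col5a1, Col6a1 and Col27a1 among the higher, and Col13a1 and Col28a1 among the lower. Without the 3 libraries whose sex transcripts go against their label, the counts were again 13 and 3, against 13.7% and 17.0% of all genes. edgeR's quasi-likelihood test on recovered reads gave 12 higher and 1 lower chain, against 11.9% and 10.5% of all genes. DESeq2 gave 12 higher and 2 lower (14.9% and 14.3% of all genes), array weights 13 and 3 (17.1% and 20.3%), adding 5 in place of 1 before the log 8 and 3 (10.2% and 13.4%), quantile normalization 8 and 3 (13.2% and 13.6%), and no filter on low values 5 and 1 (4.36% and 6.15% of 24888 genes). edgeR's scaling placed the median of all genes at 0.02, and that of the chains at 0.71. Col6a3, Col12a1, Col14a1 and Col15a1 passed whichever library was left out. Without Cre_control 2, 3 or 4, these 4 were the chains called higher. Without SPOP_CKI 2 or SPOP_CKI 4, 5 chains were higher, the same 4 and Col8a1, and so they were without Cre_control 1 or 5. The number of all genes called higher fell as well. It was 1421 with all libraries, and 900, 986, 1062, 889 and 1161 without Cre_control 1 to 5. It was 1297 and 1070 without SPOP_CKI 2 and SPOP_CKI 4.

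In 4 of the 30 chains, every SPOP_CKI library was above every Cre_control library, and in 2 every SPOP_CKI library was below. Over all genes tested, these arrangements held for 9.01% and 12.3%. The 4 were Col6a3, Col8a1, Col14a1 and Col15a1, and the 2 were Col13a1 and Col28a1.

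**Figure D1:**
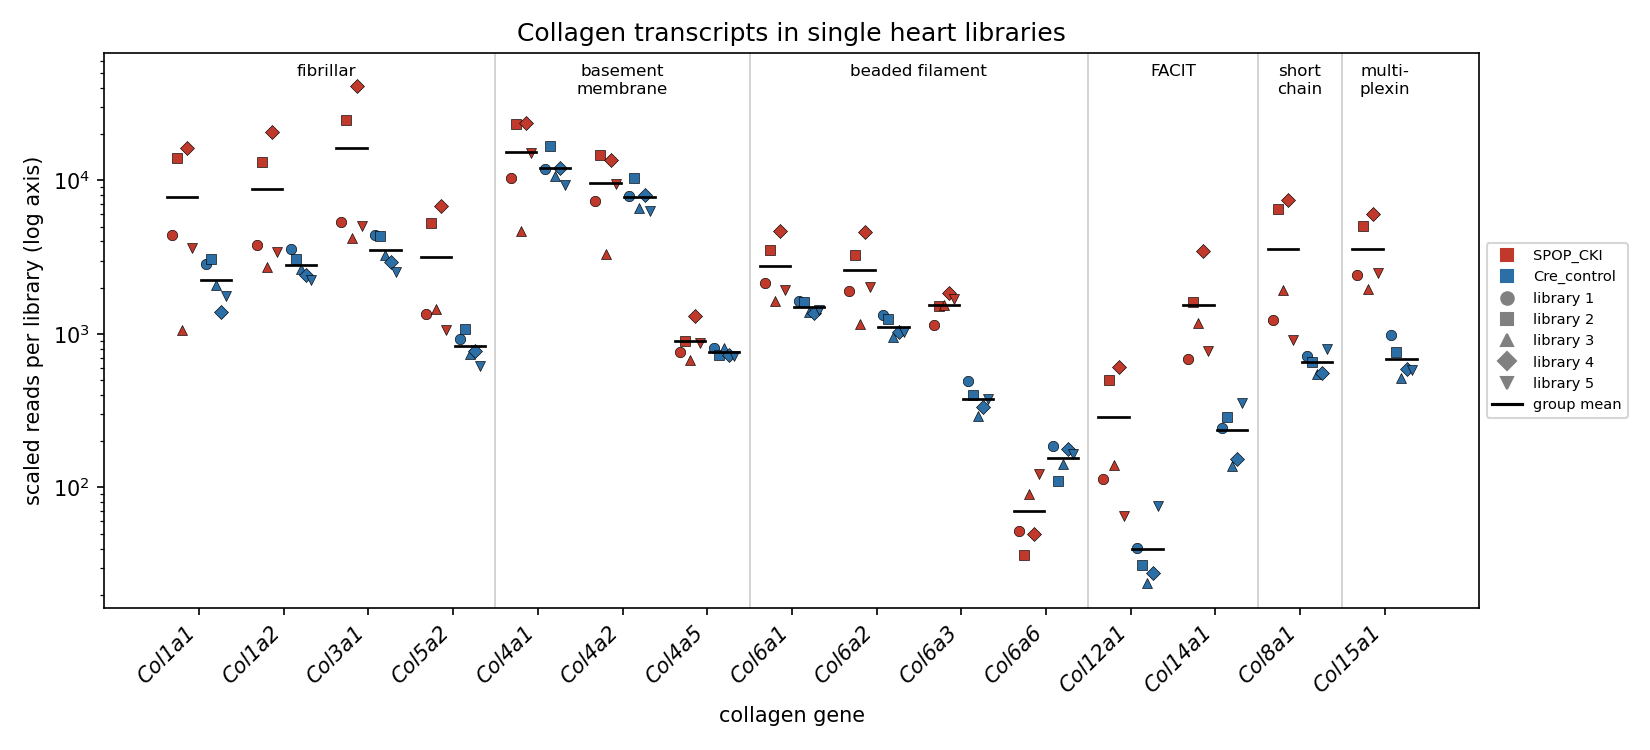
Scaled reads (log axis) of 15 collagen genes in each of the 5 SPOP_CKI libraries (red, left of each pair) and 5 Cre_control libraries (blue), with marker shapes for the library number and a bar for the group mean. SPOP_CKI 2 and SPOP_CKI 4 lie highest for the fibrillar chains, Col12a1, Col14a1, Col8a1 and Col15a1, whereas the SPOP_CKI libraries of Col6a3 lie close together, at 1135 to 1832, above the Cre_control libraries at 290.2 to 493.

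**Figure D2:**
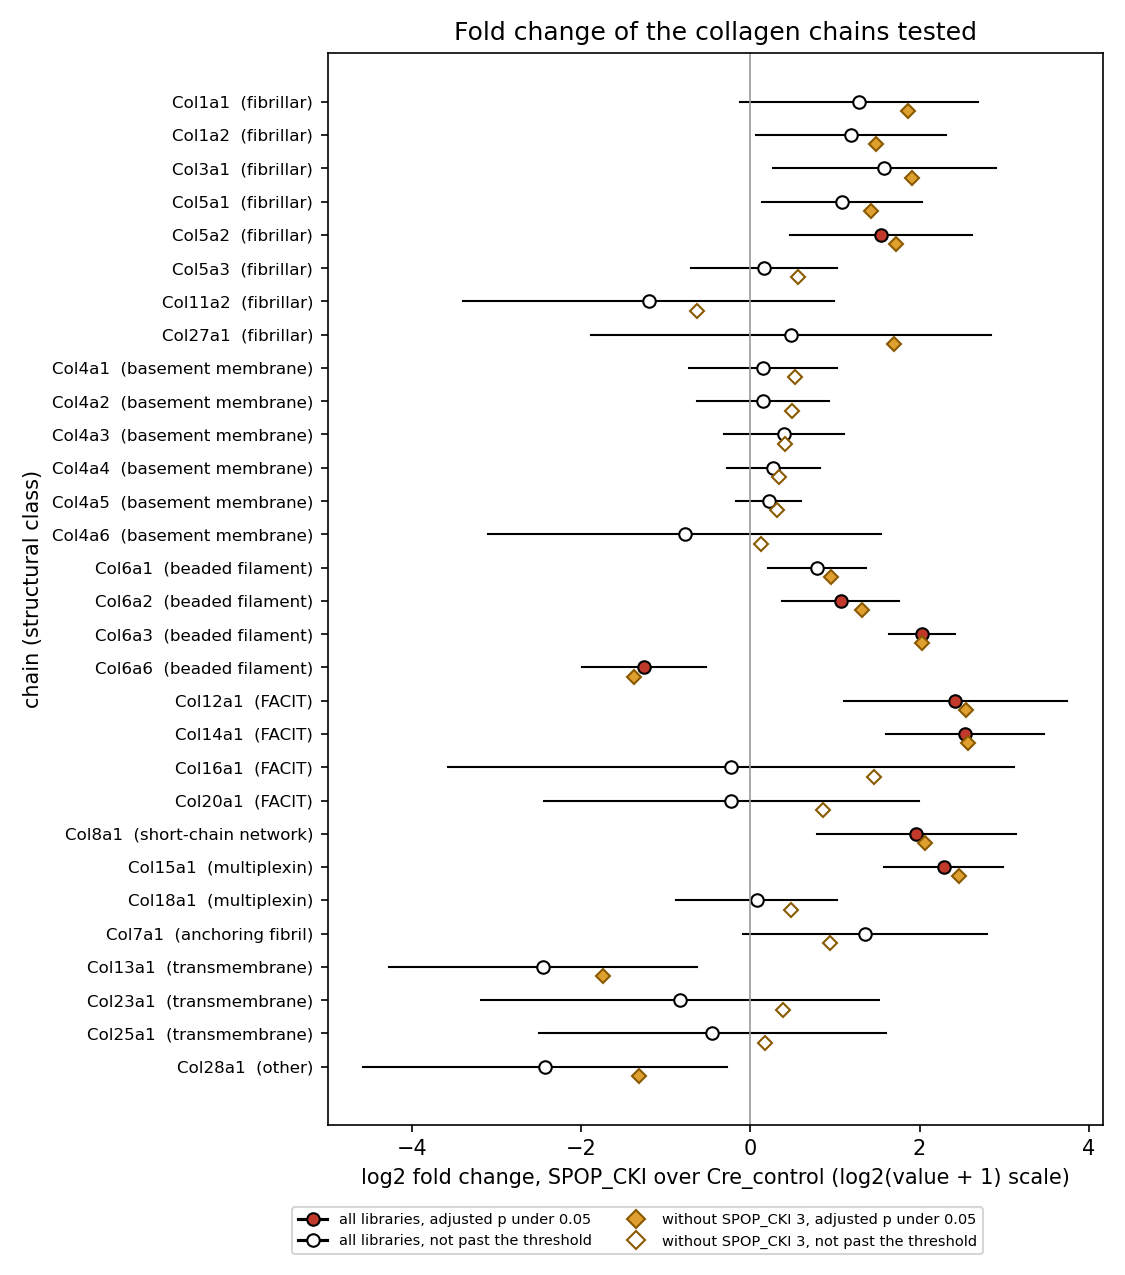
Log2 fold change of SPOP_CKI over Cre_control for the 30 chains tested, on the log2(value + 1) scale, with lines for the 95% confidence interval in all 10 libraries and diamonds for the value without SPOP_CKI 3. Filled circles mark the 8 chains past an adjusted p of 0.05, and filled diamonds the 16 chains past it without SPOP_CKI 3.

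The sequences before the start of 4 of these genes are shown. They are those of the chains chosen for display that had a RefSeq window clear of annotated exons. Each is the 250 bases before the annotated start, 5′ to 3′ on the strand of the gene, from RefSeq (GRCm38.p6). The motifs searched on both strands were CCAAT, known from binding by NF-Y, the core of the TATA box, TATAAA, the core of the GC box, GGGCGG, and the AP-1 site TGAGTCA. Capitals mark their matches. A match to GGGCGG on the opposite strand reads CCGCCC here.
Col6a3 (chr1:90843972-90844221, minus strand): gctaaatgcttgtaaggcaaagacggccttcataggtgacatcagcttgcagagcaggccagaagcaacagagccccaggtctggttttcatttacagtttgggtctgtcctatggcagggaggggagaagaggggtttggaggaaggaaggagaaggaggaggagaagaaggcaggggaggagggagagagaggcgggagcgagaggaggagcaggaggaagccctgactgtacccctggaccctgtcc
Col15a1 (chr4:47207762-47208011, plus strand): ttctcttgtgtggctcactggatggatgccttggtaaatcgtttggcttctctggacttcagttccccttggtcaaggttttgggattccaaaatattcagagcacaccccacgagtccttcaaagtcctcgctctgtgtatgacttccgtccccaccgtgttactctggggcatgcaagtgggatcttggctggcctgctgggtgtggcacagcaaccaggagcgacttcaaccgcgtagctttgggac
Col8a1 (chr16:57754738-57754987, minus strand): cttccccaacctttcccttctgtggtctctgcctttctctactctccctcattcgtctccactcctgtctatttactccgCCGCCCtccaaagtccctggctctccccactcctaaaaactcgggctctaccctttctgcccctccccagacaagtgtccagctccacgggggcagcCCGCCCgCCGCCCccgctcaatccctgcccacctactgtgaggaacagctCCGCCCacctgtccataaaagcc
Col3a1 (chr1:45311288-45311537, plus strand): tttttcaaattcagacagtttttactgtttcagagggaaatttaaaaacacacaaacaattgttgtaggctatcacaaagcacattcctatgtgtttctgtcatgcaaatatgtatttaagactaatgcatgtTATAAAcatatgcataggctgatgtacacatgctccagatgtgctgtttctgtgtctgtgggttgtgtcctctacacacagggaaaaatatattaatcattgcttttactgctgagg

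The windows of Col6a3 and Col15a1, with a GC content of 57.2% and 53.6%, hold none of the 4 motifs. That of Col8a1, with a GC content of 60.8%, holds GGGCGG on the opposite strand at 4 positions, starting 170, 73, 66 and 23 bases before the start. That of Col3a1, at 35.2% GC, holds TATAAA on its own strand 117 bases before the start. GGGCGG is in 32.7% of 32851 promoter windows of the same length and TATAAA in 12.4%. Of 38 windows of 35 chains, 22 hold GGGCGG, 13 hold CCAAT (33.8% of all windows), 5 hold TATAAA and 1, that of Col6a1, holds TGAGTCA (4.46% of all windows). Only 20 of the 38 are clear of annotated exons.

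Among the fibrillar chains, limma with all libraries called 1 higher, Col5a2 (ENSMUSG00000026042, chr1:45374321-45503282, minus strand), the alpha2 chain of type V collagen. 8 of the 11 fibrillar chains were tested, 7 had a log2 fold change above 0, and their median was 1.13. Col5a2 had 1346, 5301, 1457, 6771 and 1063 scaled reads in SPOP_CKI hearts 1 to 5 and 929.5, 1074, 738, 778 and 619 in Cre_control hearts 1 to 5. SPOP_CKI 2 and SPOP_CKI 4 were the high libraries, and SPOP_CKI 5 was below Cre_control 2. This gave a log2 fold change of 1.54 (SE 0.49, 2.91-fold, limma adjusted p = 0.0435). The call was lost without SPOP_CKI 2, SPOP_CKI 4 or any Cre_control library, with adjusted p from 0.0216 to 0.0885 over the libraries left out, and it was lost with no filter on low values (adjusted p = 0.0904).

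Col3a1, the chain of type III collagen, and Col1a1 and Col1a2, the chains of type I collagen, were the fibrillar transcripts of highest level per length. Per kilobase of the deposited gene length, Col3a1 had 1642 scaled reads per kilobase in SPOP_CKI hearts and 357 in Cre_control hearts, Col1a1 1193 scaled reads per kilobase in SPOP_CKI hearts and 339.8 in Cre_control hearts and Col1a2 702 scaled reads per kilobase in SPOP_CKI hearts and 224 in Cre_control hearts. None of the 3 passed the test with all libraries. Col3a1 (chr1:45311538-45349706) had 5318, 24783, 4206, 41279 and 5014 scaled reads in SPOP_CKI hearts 1 to 5 and 4434, 4349, 3284, 2929 and 2543 in Cre_control hearts 1 to 5. SPOP_CKI 2 and SPOP_CKI 4 were far above every other library, and SPOP_CKI 3 was below Cre_control 1 and Cre_control 2. Its log2 fold change was 1.58 (SE 0.60, limma adjusted p = 0.0785), and 1.91 without SPOP_CKI 3 (adjusted p = 0.0363).

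Col1a1 (chr11:94936224-94953042) had 4432, 13923, 1059, 16112 and 3623 scaled reads in SPOP_CKI hearts 1 to 5 and 2847, 3086, 2072, 1394 and 1753 in Cre_control hearts 1 to 5. 4 SPOP_CKI libraries were above all the controls and SPOP_CKI 3 was below all of them. On the log2 scale the difference was 1.28 (SE 0.64, limma adjusted p = 0.17), and 1.86 without SPOP_CKI 3 (adjusted p = 0.0119). Col1a2 (chr6:4504814-4541544) had 3816, 13098, 2712, 20556 and 3426 scaled reads in SPOP_CKI hearts 1 to 5 and 3548, 3089, 2644, 2418 and 2241 in Cre_control hearts 1 to 5. Again SPOP_CKI 2 and SPOP_CKI 4 were above all others, and the remaining 3 SPOP_CKI libraries lay among or close to the controls. Its log2 fold change was 1.19 (SE 0.51, limma adjusted p = 0.117), and 1.49 without SPOP_CKI 3 (adjusted p = 0.042).

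The other fibrillar chains tested did not pass. Col5a1, the alpha1 chain of type V collagen, averaged 2142 ± 1484 scaled reads in SPOP_CKI hearts and 819 ± 116 in Cre_control hearts (log2 fold change 1.08, limma adjusted p = 0.094). It passed without SPOP_CKI 3 (adjusted p = 0.00969). Col27a1, a fibrillar chain best known from cartilage, was singled out after its values were seen. It had 152, 188, 0.876, 112 and 86.2 scaled reads in SPOP_CKI hearts 1 to 5 and 44.6, 38.6, 26.1, 39.4 and 50.4 in Cre_control hearts 1 to 5. 4 SPOP_CKI libraries were above every control, and SPOP_CKI 3 held a single read, so that the log2 fold change was 0.48 with all libraries (adjusted p = 0.771) and 1.70 without it (adjusted p = 0.00141). Col5a3, the alpha3 chain of type V collagen, and Col11a2, of type XI collagen, had adjusted p of 0.791 and 0.4. Col5a3 was called higher when values were centred on transcript GC content (limma adjusted p = 0.00225). Col2a1, the chain of cartilage fibrils, Col11a1 and Col24a1 did not pass the filter and averaged at most 5.81 scaled reads in SPOP_CKI hearts and 3.51 in Cre_control hearts.

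In all, limma called 1 of the 8 fibrillar chains higher with all libraries, against 10.0% of all genes, and 6 without SPOP_CKI 3, against 13.7%. edgeR and DESeq2 on recovered reads each called 5 of the 8 higher with all libraries, Col1a1, Col1a2, Col3a1, Col5a1 and Col5a2, against 11.9% and 14.9% of all genes. Markers of activated fibroblasts were read in the same libraries, and their relation to these chains across libraries was not tested. The summed level of the 8 markers was 7868 to 57600 scaled reads in SPOP_CKI hearts and 2206 to 4101 in Cre_control hearts. Of the 7 tested, 4 rose, against 10.0% of all genes (Postn not when values were centred on transcript GC content, adjusted p = 0.0744). Cilp, Comp and Fap did not pass, and Fap had a log2 fold change of 0.05 (limma adjusted p = 0.92). The part of these cells in the collagen values was not tested.

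No basement membrane chain passed the test used throughout, although Col4a1 and Col4a2 were the most abundant collagen transcripts per length in Cre_control hearts. 0 of 6 chains were called by limma, edgeR or DESeq2, against 22.3% of all genes called by limma. 0 had an unadjusted p under 0.05 in the limma fit. Of the 6, 5 had a log2 fold change above 0, and the median was 0.18. With that centring, described with the values of SPOP_CKI 3, limma called Col4a2 higher. Per kilobase, Col4a1 had 2057 scaled reads per kilobase in SPOP_CKI hearts and 1619 in Cre_control hearts, and Col4a2 had 1455 scaled reads per kilobase in SPOP_CKI hearts and 1180 in Cre_control hearts. The 2 chains combine in the type IV network of most basement membranes.

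Col4a1 (chr8:11198423-11312826) had 10369, 23213, 4677, 23495 and 15027 scaled reads in SPOP_CKI hearts 1 to 5 and 11817, 16649, 10659, 12042 and 9271 in Cre_control hearts 1 to 5. SPOP_CKI 2 and SPOP_CKI 4 were the highest libraries, SPOP_CKI 3 was the lowest of all, and the groups overlapped. SPOP_CKI over Cre_control gave a log2 fold change of 0.15 (95% confidence interval -0.72 to 1.03, limma adjusted p = 0.802). Col4a2 (chr8:11312805-11449287) had 7359, 14561, 3334, 13523 and 9389 scaled reads in SPOP_CKI hearts 1 to 5 and 7945, 10278, 6578, 7982 and 6274 in Cre_control hearts 1 to 5. Its libraries fell in nearly the same order, and the log2 fold change was 0.15 (95% confidence interval -0.63 to 0.93, limma adjusted p = 0.781). The signs of both turned without SPOP_CKI 2 or SPOP_CKI 4, and both were larger without SPOP_CKI 3, at 0.53 and 0.49 (adjusted p = 0.146 and 0.125). Without the 3 libraries whose sex transcripts go against their label, they were 0.68 and 0.60 (limma adjusted p = 0.0617 and 0.0751).

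Col4a5, a chain of the minor alpha3-alpha4-alpha5 and alpha5-alpha6 networks, had 759.8, 899.6, 675, 1313 and 874 scaled reads in SPOP_CKI hearts 1 to 5 and 809, 729.5, 805, 729.5 and 721 in Cre_control hearts 1 to 5. SPOP_CKI 4 was the highest library, and the others overlapped (log2 fold change 0.22, 95% confidence interval -0.17 to 0.60, limma adjusted p = 0.385). Col4a3 and Col4a4, its partners in the network of the kidney glomerulus, averaged 144 and 274 scaled reads in SPOP_CKI hearts and 103 and 219 in Cre_control hearts (adjusted p = 0.386 and 0.449). Col4a6 averaged 26.3 and 21.3 scaled reads in SPOP_CKI and Cre_control hearts (adjusted p = 0.619).

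The genes of type IV collagen lie in head-to-head pairs. In the deposited spans, Col4a1 and Col4a2 overlap by 22 bases, Col4a3 and Col4a4 are 71 bases apart and Col4a5 and Col4a6 are 1308 bases apart. Without a stated strand setting, reads from the overlap cannot be assigned. The ratio of Col4a1 to Col4a2 scaled reads averaged 1.55 ± 0.14 in SPOP_CKI hearts and 1.54 ± 0.07 in Cre_control hearts (SD, n = 5 each), within 1.40 to 1.74 in all 10 libraries. The 8 endothelial markers, of cells that rest on such membranes, summed to 15950 to 22240 scaled reads in SPOP_CKI hearts and 25660 to 29480 in Cre_control hearts. 5 of the 8 fell, Cldn5, Egfl7, Tie1 and Cdh5 the most, against 12.3% of all genes. When values were centred on transcript GC content, 1 of the 8 fell, against 8.68% of all genes. The calls of Cldn5 (adjusted p = 0.0501), Egfl7 (0.21), Tie1 (0.0702) and Pecam1 (0.0709) were then lost. The Pecam1 call was also lost without the 3 libraries whose sex transcripts go against their label (limma adjusted p = 0.0799). Their part in the type IV values was not tested.

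Type VI collagen gave the rise with the smallest adjusted p among the chains, and the 1 fall that limma called with all libraries. Without SPOP_CKI 3, Col13a1 and Col28a1 were also called lower. Of 4 beaded filament chains tested, 2 rose (Col6a3 and Col6a2), 1 fell (Col6a6) and Col6a1 did not pass. Over all genes tested, 10.0% rose and 12.3% fell. Col6a3 (ENSMUSG00000048126, chr1:90765923-90843971, minus strand) encodes the long alpha3 chain, whose carboxy-terminal fragment is released as endotrophin. It had 1135, 1523, 1544, 1832 and 1684 scaled reads in SPOP_CKI hearts 1 to 5 and 493, 401, 290.2, 334 and 376 in Cre_control hearts 1 to 5. The SPOP_CKI libraries lay close together, with SPOP_CKI 3 in their middle, and did not overlap the controls. Its difference on the log2 scale was 2.03 (SE 0.18, 4.08-fold, limma adjusted p = 0.000187). Its coefficient of variation was 16.8% among SPOP_CKI and 20.2% among Cre_control libraries, and it was the sole chain of 21 with a mean of at least 100 in which the spread was not larger among SPOP_CKI libraries.

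Col6a2 (ENSMUSG00000020241, chr10:76595762-76623630, minus strand), the alpha2 chain, had 1888, 3271, 1155, 4624 and 2016 scaled reads in SPOP_CKI hearts 1 to 5 and 1328, 1241, 950.0, 1028 and 1025 in Cre_control hearts 1 to 5. 4 SPOP_CKI libraries were above every control, and SPOP_CKI 3 lay among them. The log2 fold change was 1.07 (SE 0.32, 2.09-fold, limma adjusted p = 0.0326), and the call was lost without SPOP_CKI 2, SPOP_CKI 4 or any Cre_control library (adjusted p over libraries left out 0.00217 to 0.0762). Col6a1 (chr10:76708792-76726168), the alpha1 chain, had 2137, 3521, 1625, 4682 and 1922 scaled reads in SPOP_CKI hearts 1 to 5 and 1628, 1622, 1398, 1362 and 1428 in Cre_control hearts 1 to 5. SPOP_CKI 3 lay just below Cre_control 1, and the other SPOP_CKI libraries were above all controls. Its log2 fold change was 0.79 (SE 0.27, limma adjusted p = 0.0529), and it passed without SPOP_CKI 3 (adjusted p = 0.00985) or SPOP_CKI 5 (adjusted p = 0.0417). Col6a1 and Col6a2 lie 85161 bases apart on chromosome 10, on the same strand.

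The balance of the type VI chains differed between the groups. In the classical trimer the alpha1, alpha2 and alpha3 chains are joined in equal number. The ratios here are of scaled reads and are not corrected for gene length. The lengths are 11963 bases for Col6a3, 4380 for Col6a1 and 8326 for Col6a2. The size of a ratio can therefore be compared between libraries, but not with the make-up of the trimer. The ratio of Col6a3 to Col6a1 scaled reads was 0.531, 0.433, 0.950, 0.391 and 0.876 in SPOP_CKI hearts 1 to 5 and 0.303, 0.247, 0.208, 0.246 and 0.264 in Cre_control hearts 1 to 5. Every SPOP_CKI library was above every control, and SPOP_CKI 3 and SPOP_CKI 5 were highest. Against Col6a2, the ratio averaged 0.727 ± 0.380 in SPOP_CKI and 0.339 ± 0.029 in Cre_control hearts, again without overlap. The ratio of Col6a1 to Col6a2 averaged 1.12 ± 0.18 in SPOP_CKI and 1.34 ± 0.09 in Cre_control hearts, with overlap. These ratios were not tested.

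Col6a6 (ENSMUSG00000043719, chr9:105687809-105828160, minus strand), an alpha chain that can take the place of alpha3 in the trimer, had 52.4, 36.3, 90.2, 49.7 and 123 scaled reads in SPOP_CKI hearts 1 to 5 and 186, 109, 142, 177 and 166 in Cre_control hearts 1 to 5. SPOP_CKI 5 was above Cre_control 2 and the other SPOP_CKI libraries were below every control. This gave a log2 fold change of -1.25 (SE 0.34, 2.38-fold lower, limma adjusted p = 0.0215). The call was lost without Cre_control 1 (adjusted p = 0.0611) or Cre_control 4 (adjusted p = 0.0578), and when values were centred on transcript GC content (adjusted p = 0.0665). Col6a4 and Col6a5, which neighbour Col6a6 on chromosome 9, averaged at most 0.803 scaled reads in SPOP_CKI hearts and 1.33 in Cre_control hearts and were not tested.

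**Figure D3:**
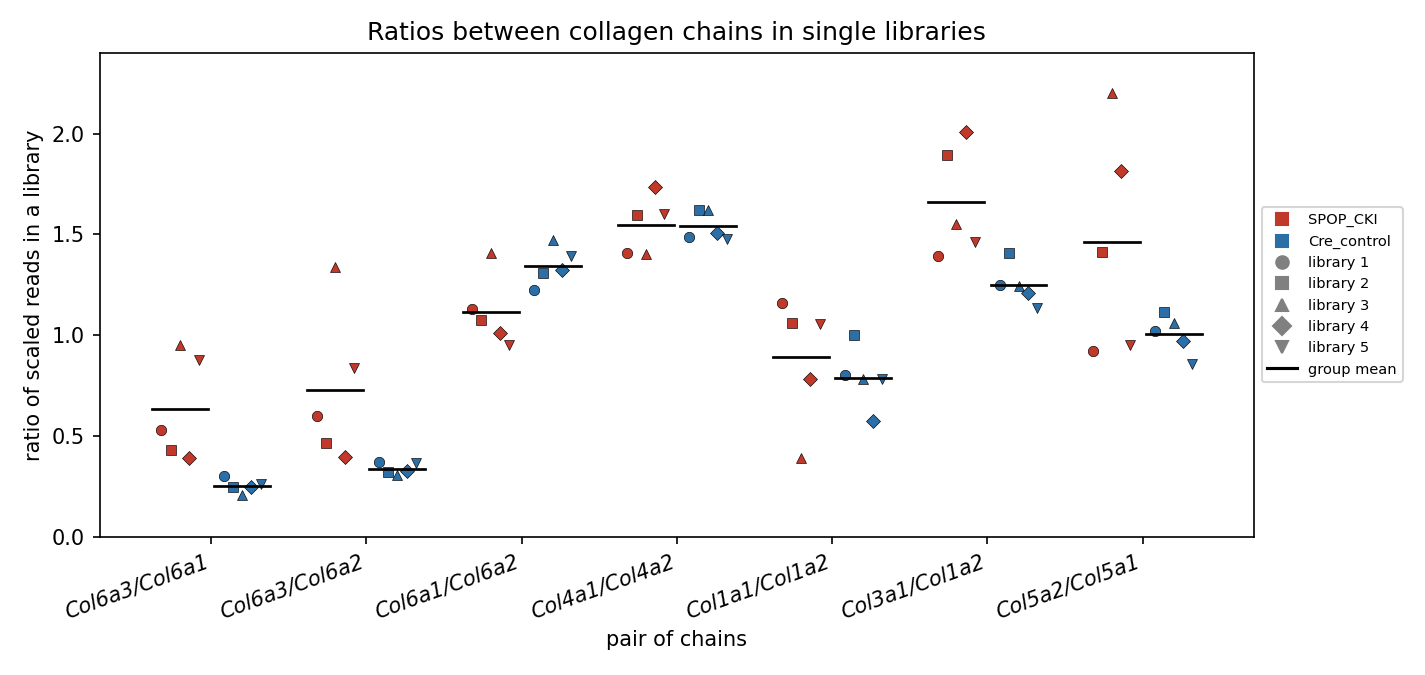
Ratios of the scaled reads of 7 pairs of collagen genes in each SPOP_CKI (red, left) and Cre_control library (blue), with a bar for the group mean. For Col6a3 over Col6a1 and over Col6a2 every SPOP_CKI library is above every Cre_control library, and Col4a1 over Col4a2 stays within 1.40 to 1.74.

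The FACIT chains Col14a1 and Col12a1, which bind the surface of type I fibrils, had the largest folds of all chains that passed. 4 of 9 FACIT chains were tested and these 2 rose, against 10.0% of all genes tested. Col14a1 (ENSMUSG00000022371, chr15:55307750-55520803, plus strand) had 690.2, 1617, 1169, 3439.7 and 778 scaled reads in SPOP_CKI hearts 1 to 5 and 243, 286, 138, 154 and 353 in Cre_control hearts 1 to 5. Every SPOP_CKI library was above every control, with SPOP_CKI 4 highest. On the log2 scale the difference was 2.54 (SE 0.42, 5.80-fold, limma adjusted p = 0.00271). It was 2.57 without SPOP_CKI 3, and its adjusted p over the libraries left out was 0.0025 to 0.00969.

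Col12a1 (ENSMUSG00000032332, chr9:79598991-79718831, minus strand) had 113, 499, 141, 609.9 and 64.9 scaled reads in SPOP_CKI hearts 1 to 5 and 40.3, 31.1, 23.8, 27.9 and 76.1 in Cre_control hearts 1 to 5. Libraries SPOP_CKI 2 and SPOP_CKI 4 were high, and SPOP_CKI 5 lay below Cre_control 5, so that the groups overlapped. SPOP_CKI over Cre_control gave a log2 fold change of 2.42 (SE 0.60, 5.37-fold, limma adjusted p = 0.0162, 0.00708 to 0.0433 over the libraries left out). Per kilobase, Col14a1 had 219 scaled reads per kilobase in SPOP_CKI hearts and 33.5 in Cre_control hearts, and Col12a1 had 18.8 scaled reads per kilobase in SPOP_CKI hearts and 2.62 in Cre_control hearts.

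Col16a1 (chr4:130047840-130099283), a FACIT chain of fibrils and fibrillin microfibrils, had 156, 658, 0, 936 and 141 scaled reads in SPOP_CKI hearts 1 to 5 and 195, 131, 86.2, 171 and 77.2 in Cre_control hearts 1 to 5. SPOP_CKI 3 had 0 reads, SPOP_CKI 2 and SPOP_CKI 4 were far above every control, and the other SPOP_CKI libraries lay among the controls. With all libraries the log2 fold change was -0.23 (SE 1.52, adjusted p = 0.924), and its sign turned without SPOP_CKI 3, at 1.46 (adjusted p = 0.0795). Col20a1 did not pass (adjusted p = 0.885). Col9a1, Col9a2 and Col9a3 of cartilage, Col19a1 and Col22a1 were not tested, with means of 0 to 15.4 scaled reads in SPOP_CKI hearts and 0.212 to 10.2 in Cre_control hearts.

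Among the other classes, 1 of 2 multiplexin chains tested and the 1 short-chain network chain tested rose, against 10.0% of all genes. Of the 1 anchoring fibril chain, 3 transmembrane chains and 1 chain of other type tested, 0 rose. Col15a1 (ENSMUSG00000028339, chr4:47208161-47313167, plus strand) encodes a multiplexin of the zone between basement membrane and fibrils, and its loss causes skeletal muscle and heart defects in mice. It had 2407, 5071, 1964, 6034 and 2498 scaled reads in SPOP_CKI hearts 1 to 5 and 986, 761, 515, 586 and 582 in Cre_control hearts 1 to 5. Every SPOP_CKI library was above every control, SPOP_CKI 3 the least so, and SPOP_CKI 2 and SPOP_CKI 4 were highest. Its difference on the log2 scale was 2.28 (SE 0.32, 4.87-fold, limma adjusted p = 0.0012, 0.000194 to 0.00507 over the libraries left out).

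Its paralog Col18a1, the precursor of endostatin, averaged 337 ± 185 scaled reads in SPOP_CKI hearts and 280.3 ± 82.8 in Cre_control hearts (log2 fold change 0.07, 95% confidence interval -0.88 to 1.02, limma adjusted p = 0.914). When values were centred on transcript GC content, Col18a1 was called higher (log2 fold change 1.02, limma adjusted p = 0.017). Col18a1 overlaps Slc19a1 on the opposite strand over 8825 bases, so that its reads are uncertain.

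Col8a1 (ENSMUSG00000068196, chr16:57624258-57754737, minus strand), a short-chain network collagen of vessels that is also made by cardiac fibroblasts, had 1226, 6457, 1936, 7440.4 and 907 scaled reads in SPOP_CKI hearts 1 to 5 and 718, 654, 549.9, 556 and 796 in Cre_control hearts 1 to 5. Every SPOP_CKI library was above every control, SPOP_CKI 5 only slightly, and SPOP_CKI 2 and SPOP_CKI 4 were highest. The log2 fold change was 1.96 (SE 0.54, 3.90-fold, limma adjusted p = 0.0246). The call was lost without Cre_control 2, 3 or 4 (adjusted p = 0.0512, 0.0524 and 0.0582) and with no filter on low values (adjusted p = 0.0596). Its partner Col8a2 did not pass the filter. Col8a2 had 30.7, 81.0, 0, 368 and 4.72 scaled reads in SPOP_CKI hearts 1 to 5 and 5.31, 2.15, 6.80, 0.961 and 20.4 in Cre_control hearts 1 to 5, so that its SPOP_CKI mean of 96.8 came mostly from SPOP_CKI 4, against 7.12 in Cre_control hearts.

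Col28a1, a chain described in peripheral nerve, had 28.9, 50.4, 0, 50.5 and 56.7 scaled reads in SPOP_CKI hearts 1 to 5 and 102, 95.5, 145, 173 and 80.4 in Cre_control hearts 1 to 5. Every SPOP_CKI library was below every control and SPOP_CKI 3 had 0 reads. This gave a log2 fold change of -2.43 (limma adjusted p = 0.097), and -1.32 without SPOP_CKI 3 (adjusted p = 0.00579). The 5 Schwann cell markers summed to 383.6 to 477.9 scaled reads in SPOP_CKI hearts and 289.1 to 500.5 in Cre_control hearts. Of these markers, 1 of the 4 tested, Ngfr, rose, against 10.0% of all genes (a call lost without SPOP_CKI 2 or any Cre_control library). Their part in the Col28a1 values was not tested. Col13a1, a transmembrane chain of neuromuscular synapses and cell contacts, averaged 11.1 ± 10.4 scaled reads in SPOP_CKI hearts and 39.5 ± 11.7 in Cre_control hearts (log2 fold change -2.45, limma adjusted p = 0.0546), and it passed without SPOP_CKI 3 (adjusted p = 0.0264).

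Col23a1, the transmembrane chain of highest level per length, had 63.2, 105, 0, 54.9 and 55.5 scaled reads in SPOP_CKI hearts 1 to 5 and 71.1, 53.6, 49.9, 38.4 and 47.2 in Cre_control hearts 1 to 5. Its SPOP_CKI 3 library had 0 reads and the groups overlapped (log2 fold change -0.83, adjusted p = 0.597). Col7a1, the anchoring fibril chain of skin, had 24.4, 18.2, 56.9, 10.5 and 5.90 scaled reads in SPOP_CKI hearts 1 to 5 and 6.37, 3.22, 5.67, 6.73 and 11.8 in Cre_control hearts 1 to 5. SPOP_CKI 3 was its highest library, and the groups overlapped (log2 fold change 1.35, limma adjusted p = 0.157). Col25a1 did not pass, and Col17a1, Col26a1 and Col10a1 were not tested. Of the 14 chains not tested, 12 averaged under 10 scaled reads over the 10 libraries.

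Summed per kilobase within each class, the makeup of the collagen transcripts shifted away from the basement membrane class. This class made up 42.9%, 34.7%, 33.8%, 27.8% and 52.5% of the summed level in SPOP_CKI hearts 1 to 5, against 54.3%, 61.7%, 58.3%, 62.0% and 56.9% in Cre_control hearts 1 to 5. Every SPOP_CKI library was below every control. The level of the class itself averaged 3691 ± 1823 scaled reads per kilobase in SPOP_CKI and 2946 ± 606 in Cre_control hearts, with overlap.

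The fibrillar share was 31.9%, 43.4%, 28.6%, 49.0% and 24.7% in SPOP_CKI hearts 1 to 5, against 27.1%, 23.7%, 24.8%, 21.1% and 22.7% in Cre_control hearts 1 to 5. SPOP_CKI 5 lay within the controls, and the other 4 above them. The fibrillar level averaged 4244 ± 3795 scaled reads per kilobase in SPOP_CKI hearts and 1201 ± 267 in Cre_control hearts, with overlap.

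The FACIT share averaged 3.07% ± 1.198 in SPOP_CKI and 1.32% ± 0.31 in Cre_control hearts, and the multiplexin share 6.48% ± 1.33 in SPOP_CKI and 2.94% ± 0.43 in Cre_control hearts, each without overlap (SD, n = 5 each). Single chains held most of both classes. Col14a1 had 219.4 of 309.6 FACIT scaled reads per kilobase in SPOP_CKI hearts and 33.5 of 64.8 in Cre_control hearts. Col15a1 had 566.2 of 614.2 multiplexin scaled reads per kilobase in SPOP_CKI hearts and 108 of 148 in Cre_control hearts. The beaded filament share averaged 12.0% ± 3.58 in SPOP_CKI and 10.6% ± 1.22 in Cre_control hearts, with overlap, while its level did not overlap, at 1082 ± 467 scaled reads per kilobase in SPOP_CKI and 522 ± 53.3 in Cre_control hearts. All chains together averaged 10450 ± 6876 scaled reads per kilobase in SPOP_CKI and 5013 ± 898 in Cre_control hearts, and SPOP_CKI 3, at 3745, was below every control. These sums carry no test.

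**Figure D4:**
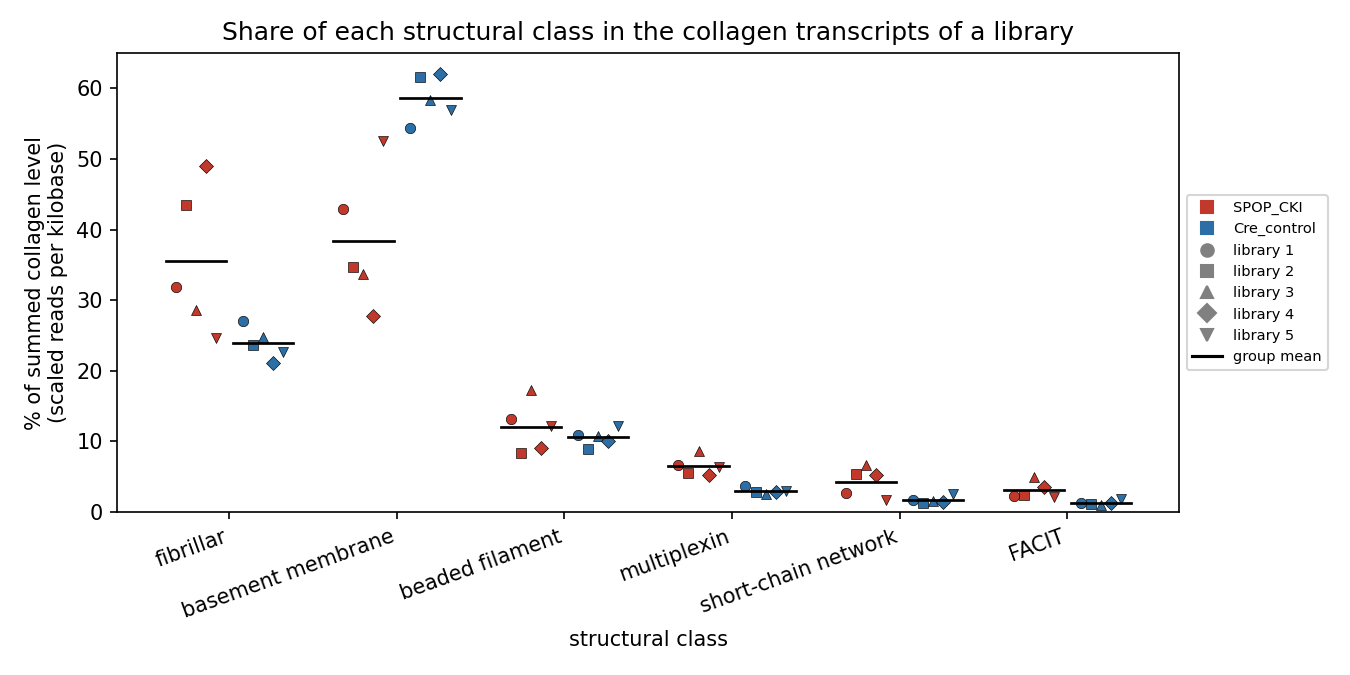
Share of 6 structural classes in the summed collagen level of each library, in % of scaled reads per kilobase over all chains, for SPOP_CKI (red, left) and Cre_control (blue), with a bar for the group mean. The basement membrane share lies at 27.8% to 52.5% in SPOP_CKI libraries, below 54.3% to 62.0% in Cre_control libraries, and the multiplexin and FACIT shares lie above those of the controls.

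The SPOP_CKI hearts differed among themselves more than the controls did. Over the 21 chains with a mean of at least 100, the median coefficient of variation was 53.2% in SPOP_CKI and 21.4% in Cre_control hearts, and it was larger in SPOP_CKI hearts for 20 of them. Over all tested genes with such a mean, the medians were 30.5% in SPOP_CKI and 15.0% in Cre_control hearts. The median was 84.6% in SPOP_CKI and 22.8% in Cre_control hearts over 6 fibrillar chains, 87.6% and 39.0% over 3 FACIT chains, 48.5% and 17.1% over 4 beaded filament chains and 46.2% and 20.3% over 5 basement membrane chains. Col3a1 had 102% in SPOP_CKI and 24.2% in Cre_control hearts. SPOP_CKI 2 and SPOP_CKI 4 were the 2 highest SPOP_CKI libraries in 19 of the 30 chains (63.3%), including 6 of 8 fibrillar and 4 of 4 FACIT chains, and in 17.7% of all tested genes.

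SPOP_CKI 3 was the lowest SPOP_CKI library in 21 of the 30 chains (70.0%), against 42.3% of all tested genes. It had 0 reads for 8 of the 30 (26.7%), against 13.8% of all tested genes. Collagen transcripts were rich in G and C, with a median transcript GC content of 55.9%, against 50.0% over all tested genes with a value. The deviation of SPOP_CKI 3 from the mean of the other SPOP_CKI libraries had a median of -1.65 over the 30 chains and -0.20 over all genes on the log2(value + 1) scale. Across the 30 chains, this deviation and GC content had a Pearson r of -0.24 and a Spearman rho of -0.33. Across 14201 genes r was -0.36 and rho -0.46. These describe genes within the same libraries, which are not independent replicates. When values were centred within 20 bins of GC content, a setting chosen after the data were seen, 15 chains were higher and 0 lower (8.93% and 8.68% of all genes). Among the higher were Col4a2 (log2 fold change 1.10, limma adjusted p = 0.00725), Col5a3 (1.105, adjusted p = 0.00225) and Col18a1 (1.02, adjusted p = 0.017). The part of base composition in the collagen values was otherwise not tested.

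**Figure D5:**
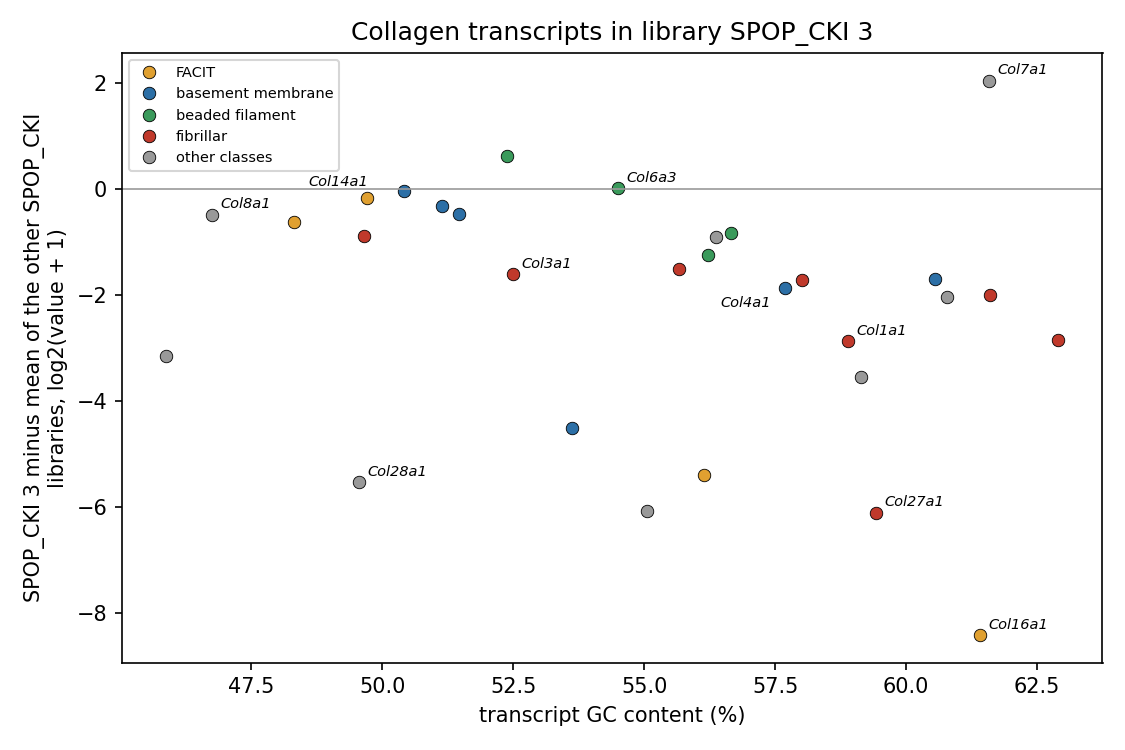
Transcript GC content (%) against the deviation of library SPOP_CKI 3 from the mean of the other SPOP_CKI libraries (log2(value + 1)) for the 30 chains tested, coloured by class. Most chains lie below 0 (median -1.65), Col6a3 lies at about 0, and Col16a1, Col27a1 and Col28a1 lie far below.

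Genes that make and fold procollagen were read in the same fit. Of 19 tested genes for hydroxylation, glycosylation and folding, 5 rose and 2 fell, with a median log2 fold change of 0.34. Over all genes tested, 10.0% rose and 12.3% fell, and these shares also stand beside the counts of the lists that follow. P4ha1, the catalytic subunit of prolyl 4-hydroxylase, averaged 1931 ± 698 scaled reads in SPOP_CKI hearts and 519 ± 102 in Cre_control hearts, without overlap (3.57-fold, limma adjusted p = 0.00122). Its partner subunit rose as well, P4hb (1.69-fold, adjusted p = 0.00407). Serpinh1, the collagen chaperone HSP47, averaged 4836 ± 2218 scaled reads in SPOP_CKI hearts and 1905 ± 404 in Cre_control hearts (2.38-fold, adjusted p = 0.0126). The prolyl isomerase Fkbp14 (2.70-fold, adjusted p = 0.00128) and the prolyl 3-hydroxylase P3h2 (2.62-fold, adjusted p = 0.00292) also rose. P4hb, Serpinh1 and P3h2 are outside the naming rule and were named after their values were seen.

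P3h4, a subunit of the complex that guides lysyl hydroxylation of collagen, averaged 226 ± 79.1 scaled reads in SPOP_CKI hearts and 972 ± 153 in Cre_control hearts, without overlap (4.48-fold lower, limma adjusted p = 0.000412). The isomerase Fkbp10 (3.30-fold lower, adjusted p = 0.0466) fell too. The Fkbp10 call was lost without SPOP_CKI 1, SPOP_CKI 5 or any Cre_control library, and with edgeR (adjusted p = 0.0702) and GC centring (adjusted p = 0.051).

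Of 11 export genes, Sec23a, of the coat that carries procollagen from the endoplasmic reticulum, rose (1.46-fold, limma adjusted p = 0.0417), and Tfg did not pass (adjusted p = 0.0982). The Sec23a call was lost without SPOP_CKI 2, SPOP_CKI 4 or Cre_control 1, 2, 4 or 5. Of 14 genes for propeptide cleavage and cross-linking, limma called 0, with 4 at an unadjusted p under 0.05, and edgeR and DESeq2 each called 4 higher. Their smallest adjusted p values were 0.06 for the lysyl oxidase-like enzyme Loxl2 and 0.0852 for the propeptidase enhancer Pcolce. Without SPOP_CKI 3, 4 of the 14 were higher.

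Of 13 fibril and network partners, 2 rose, the small proteoglycans Lum (2.31-fold, adjusted p = 0.0123) and Ogn (2.05-fold, adjusted p = 0.0473), and 2 fell, the matricellular protein Thbs2 (2.27-fold lower, adjusted p = 0.00511) and the basement membrane linker Nid2 (1.56-fold lower, adjusted p = 0.0466). The Ogn call was kept only without SPOP_CKI 2, and the Nid2 call only without SPOP_CKI 2 or Cre_control 3. Among 10 receptors, 3 rose, namely the fibrillar collagen receptor Ddr2 (1.94-fold, adjusted p = 0.00751), Adgrg6 (1.84-fold, adjusted p = 0.0471) and Itgb1 (1.41-fold, adjusted p = 0.0489). The Adgrg6 call was lost without any of 7 libraries (SPOP_CKI 2, 4 or 5, or Cre_control 1, 2, 4 or 5), and the Itgb1 call without any library but SPOP_CKI 1 or SPOP_CKI 5. Of 10 collagenolysis genes, the inhibitor Timp4 fell, averaging 494 ± 374 scaled reads in SPOP_CKI hearts and 2983 ± 583 in Cre_control hearts (8.08-fold lower, limma adjusted p = 0.00369). The inhibitor Timp1 averaged 1897 ± 3159 scaled reads in SPOP_CKI hearts and 48.0 ± 17.4 in Cre_control hearts and did not pass with all libraries (adjusted p = 0.0972), and it passed without SPOP_CKI 3 (adjusted p = 0.0382). Of 18 inducers and regulators, 3 rose, namely the ligand Tgfb2 (3.46-fold, adjusted p = 0.00224), its receptor Tgfbr1 (2.20-fold, adjusted p = 0.00369) and the transducer Smad3 (1.77-fold, adjusted p = 0.0073). With GC centring the calls of Sec23a, Ogn, Nid2, Adgrg6 and Itgb1 were lost, and with edgeR those of Nid2, Adgrg6 and Itgb1. Calls lost without the 3 libraries whose sex transcripts go against their label included Sec23a (limma adjusted p = 0.0739), Ogn (0.086) and Nid2 (0.164). Over the 95 pathway genes tested, 14 rose and 5 fell, against 10.0% and 12.3% of all genes.

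Markers of the cells that could hold collagen RNA are given for the same libraries. Beside each count stand the shares over all genes tested, 10.0% higher and 12.3% lower. Of 7 tested markers of activated fibroblasts, Ltbp2 (8.81-fold, adjusted p = 0.037), Postn (6.07-fold, adjusted p = 0.0474), Meox1 (6.0-fold, adjusted p = 0.00172) and Acta2 (5.96-fold, adjusted p = 0.000412) rose. The Ltbp2 call was lost without SPOP_CKI 2 or 4 or Cre_control 1, 2, 3 or 4, and the Postn call was kept only without SPOP_CKI 1 or SPOP_CKI 5. Of 10 fibroblast markers, Lum rose and Scara5 (2.76-fold lower, adjusted p = 0.00944) fell, and their sum was 48520 to 77300 scaled reads in SPOP_CKI and 52210 to 71920 in Cre_control hearts. Of 6 smooth muscle markers, Acta2, which is in both lists, rose. It was the only 1 of the 6 with a log2 fold change above 0, and their median was -0.18. The sum of the 6 was 8894 to 17880 in SPOP_CKI and 3877 to 5277 in Cre_control hearts. Acta2 alone had 5459 to 15343 scaled reads in SPOP_CKI and 1043 to 2362 in Cre_control hearts. 1 of 6 pericyte markers (Kcnj8) and 1 of 3 endocardial markers (Cytl1) fell. Of 6 macrophage markers, Mrc1 and Adgre1 rose and Cd163 fell, and the sum was 3104 to 9639 in SPOP_CKI and 3259 to 5279 in Cre_control hearts. The Adgre1 call was kept only without SPOP_CKI 1 or SPOP_CKI 5, and was lost with GC centring (adjusted p = 0.0632). 0 of 5 mesothelial markers passed in either direction (0 at an unadjusted p under 0.05, and 0 by edgeR and DESeq2). Of the cardiomyocyte markers, Myh6 averaged 97162 ± 64722 scaled reads in SPOP_CKI hearts and 249200 ± 29585 in Cre_control hearts and fell with Tnni3, both calls lost with GC centring (adjusted p = 0.09 and 0.107). Actc1 rose, a call lost without SPOP_CKI 1 or 4 or Cre_control 3 or 4. That call was also lost without the 3 libraries whose sex transcripts go against their label (limma adjusted p = 0.0762). Of 2 chondrocyte markers tested, Sox9 rose and Cnmd did not pass (log2 fold change -0.75, adjusted p = 0.613). Acan, which defines cartilage, did not pass the filter and averaged 8.32 and 10.5 scaled reads in SPOP_CKI and Cre_control hearts. 4 of 5 erythroid markers fell, and 3 with GC centring. The part of any of these cells in the collagen values was not tested.

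In the authors' deposited table, which used DESeq2 on the same libraries, 14 chains are listed higher and 3 lower at an adjusted p under 0.05. In that table the log2 fold change of Col3a1 is 2.20 (adjusted p = 0.000833), that of Col6a3 2.02 (adjusted p = 7.09e-18) and that of Col8a2 3.77 (adjusted p = 0.038). The authors' deposited table lists none of the 6 basement membrane chains past that threshold, with adjusted p from 0.328 (Col4a3) to 0.835 (Col4a6).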

How the data were processed

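Poly(A) RNA of 5 SPOP_CKI and 5 Cre_control hearts was analysed, grouped by title and genotype in the labels. The submitters' processing notes name featureCounts 1.5.0-p3, DESeq2 1.20.0 and mm10. Aligner, annotation release and strand setting: not given in the sources used here. Priming was with random hexamers, per the labels' protocols. Each deposited library column holds a signal, gene reads over a size factor. Whole reads were recovered for 100% of entries (tolerance 0.001). The authors also deposited a log2 fold change and an adjusted p-value per gene, quoted where named.

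On this scaled signal the test was limma 3.58.1 in R 4.3.3 (eBayes with trend and robust variances) on log2(value + 1), over 14212 genes with at least 10 scaled reads in at least 5 libraries. It was two-sided, adjusted after Benjamini-Hochberg at 0.05. The +1 pulls changes of low genes towards 0, whereas 0 reads in 1 library can move them far on this scale. Col28a1, with 0 reads in SPOP_CKI 3, had a log2 fold change of -2.43 with limma and -1.66 with edgeR. Folds are the log2 differences converted back, and differ from ratios of means. The procedure was also run on simulated counts with the same spread in both groups. That run does not cover the wider spread among SPOP_CKI libraries or a library like SPOP_CKI 3. Alternatives were edgeR 4.0.16 and DESeq2 1.42.0 on recovered reads (3177 and 4141 of 14212 genes called), a pseudocount of 5, no filter, quantile normalization, array weights, the replicate number as a block, each library left out, the 3 libraries with sex transcripts against their label left out, and, added later, centring within GC bins.

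Described with values in every library are the chains past the threshold, the 3 highest per kilobase in each of the fibrillar, basement membrane, beaded filament and FACIT classes, and the highest in each other class. Of each pathway or marker list, up to 4 members past the threshold are named, or the 2 with the smallest p. The members and lists were chosen with earlier results of these data known. Lengths and positions are those of the deposited table, and promoters are RefSeq's.

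Chi-square per degree of freedom between libraries of a group was at least 13.8, so none was a repeat sequencing of another library. This check cannot tell separate hearts from separate preparations of the same heart. Litter and batch are not stated, and p-values therefore rest on library-to-library spread, which may be partly technical.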

Additional observations from a re-analysis of the deposited data

How the results depend on the processing

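The number of chains higher, 7 with all libraries, was 12 with edgeR, 12 with DESeq2, 13 with array weights, 13 without the 3 libraries whose sex transcripts go against the label and 15 with GC centring. The number lower, 1, was 3 with a pseudocount of 5, 2 with DESeq2, 3 with quantile normalization, 3 with array weights, 3 without those 3 libraries and 0 with GC centring. The fibrillar count, 1, was 0 with no filter, 5 with edgeR, 5 with DESeq2, 6 with array weights, 6 without those 3 libraries and 6 with GC centring. GC centring gave 1 basement membrane chain higher and 0 beaded filament chains lower. Pathway genes higher, 14 (10.0% of all genes), were 25 with DESeq2 (14.9%), 36 with array weights (17.1%), 30 without those 3 libraries (13.7%) and 27 with GC centring (8.93%). Pathway genes lower, 5 (12.3% of all genes), were 3 with no filter (6.15%) and 3 with edgeR (10.5%). With the longest protein-coding transcript as length, the Cre_control shares were 30.1% fibrillar and 51.8% basement membrane. With the deposited lengths they were 23.9% and 58.6%. In SPOP_CKI hearts the order of the classes turned. Their shares were 42.3% fibrillar and 32.0% basement membrane, against 35.5% and 38.3% with the deposited lengths. Leaving out each library in turn gave 4 to 13 chains higher and 0 to 3 lower. Fibrillar chains were 0 to 6 higher, and beaded filament chains 1 to 3 higher and 0 to 1 lower. Pathway genes were 10 to 24 higher and 3 to 5 lower. Over all genes tested, the same fits called 889 to 1944 higher and 1063 to 2456 lower, against 1421 and 1747 with all libraries. The Spop log2 fold change was 3.11 to 3.28. The causes were not tested.

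Signs turned for uncalled genes. Col16a1 was 0.21 with a pseudocount of 5, 1.53 with edgeR, 1.52 with DESeq2, 0.57 with quantile normalization, 1.59 with array weights, 1.66 without those 3 libraries, 1.46 without SPOP_CKI 3 and 0.72 with GC centring. Over the libraries left out, Col16a1 ranged from -1.01 to 1.46, Col4a1 from -0.056 to 0.53, Col4a2 from -0.042 to 0.49 and Col23a1 from -1.29 to 0.39, with the signs of Col4a1 and Col4a2 turned without SPOP_CKI 2 or SPOP_CKI 4. Col23a1 was 0.12 with edgeR, 0.10 with DESeq2, 0.085 with array weights, 0.39 without those 3 libraries and 0.39 without SPOP_CKI 3. Under GC centring Myh11 was 0.052, Notch3 0.15 and Npr3 -0.090. Npr3 was also -0.11 with array weights and -0.052 without those 3 libraries, and Cnmd was 0.18 with quantile normalization.

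With the replicate block, 7 chains were higher and 1 lower, as without it, and 14 pathway genes were higher and 5 lower. Deviations of same-numbered libraries had r from 0.0265 to 0.159, and 2 of the 5 numbers matched best with themselves, so the numbers were not taken to pair the hearts. At 15316293 to 17114869 reads, 12 of the chains not tested and 1 of those tested averaged under 10 scaled reads.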

Other observations

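The ratio of Col3a1 to Col1a2 scaled reads averaged 1.66 ± 0.27 in SPOP_CKI hearts and 1.25 ± 0.10 in Cre_control hearts (SD, n = 5 each), with overlap. Col1a1 to Col3a1 averaged 0.552 ± 0.237 in SPOP_CKI hearts and 0.630 ± 0.092 in Cre_control hearts, with SPOP_CKI 1 and SPOP_CKI 5 above every control and SPOP_CKI 3 lowest at 0.252. The ratio of Col1a1 to Col1a2, the chains of type I collagen, was 0.390 in SPOP_CKI 3 and 0.784 to 1.16 in the other SPOP_CKI libraries, against 0.576 to 0.999 in Cre_control libraries. Col5a2 over Col5a1, the chains of type V collagen, averaged 1.46 ± 0.55 in SPOP_CKI and 1.004 ± 0.098 in Cre_control hearts, and SPOP_CKI 3 was highest at 2.20. Col3a1 and Col5a2 lie tail to tail, 24614 bases apart on chromosome 1, and had log2 fold changes of 1.58 and 1.54.

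The ratio of Col4a1, of basement membranes, to Col3a1, of fibrils, was 1.95, 0.937, 1.11, 0.569 and 2.997 in SPOP_CKI hearts 1 to 5 and 2.67, 3.83, 3.25, 4.11 and 3.65 in Cre_control hearts 1 to 5. SPOP_CKI 5 was the sole SPOP_CKI library within the range of the controls. None of these ratios was tested.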
